A study of Mus musculus with 8 samples.

Results

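Amotl1, Myo10, Hrh1, Trpm6, Slc44a3, Cnn3, Cdh22, Syt2, Adamts5 and Gpam are 10 mouse genes of varied function that host, or lie nearest to, DNA elements which the study named injury-responsive enhancers (IRENs). They were taken from a list of 19 such elements cloned by the study, of which 9 belong to these genes, and they are 10 of the 21911 protein-coding genes of the annotation. The rule uses no coverage value of these libraries, but the members were chosen with earlier results of these data known. Of the 10 genes, 8 overlap an enhancer in whole or in part, and the other 2, Cnn3 and Adamts5, have one outside the gene body.

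The study profiled the transcription factor SOX9 in mouse spinal cord by CUT&Tag, in which antibodies tether a transposase to chromatin so that DNA near the bound protein is released as fragments. Nuclei came from the cords of wild-type (WT) mice, either uninjured or 1 day after a contusion at thoracic level (1 d.p.i.), and per the labels they were sorted by 7-AAD, a DNA stain. Each condition had 1 male (M) and 1 female (F) sample, and a portion of the nuclei of each sample was carried through without SOX9 antibody, with the secondary antibody alone. This gave 8 libraries, 4 with SOX9 antibody and 4 controls, with 2 libraries in each group. The injured and uninjured groups share the WT genotype and the tissue segment, and whether a sample pooled several animals is not stated in the labels. The labels name no selection for a cell type. The methods refer to an earlier sort, with antibodies to NEUN (neurons) or SOX10 (oligodendroglia) and 7-AAD, and name no gate for these nuclei. A difference in the number of cells of a type and a difference in signal per cell cannot be told apart in any comparison given here.

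SOX9 carries an HMG box, a DNA-binding domain that bends DNA at short sites with the core ACAATG or ACAAAG, and in the adult spinal cord it is present mainly in astrocytes and ependymal cells. AP-1 factors, which are dimers of FOS and JUN proteins, bind TGACTCA and its reverse complement and are induced by injury in many tissues. Enhancers are stretches of DNA that raise transcription of a gene over a distance, often from within an intron of that gene or of a neighbour.

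For each library the authors deposited its coverage of the genome. These values were divided by the library's own mean, so that a value of 1 is the average of the genome. The uninjured SOX9 libraries held 1891276 fragments (M) and 7216730 fragments (F), against 2529356 (M) and 2385009 (F) in the injured SOX9 libraries. The controls were far shallower, with 22752 (M) and 46846 (F) fragments from uninjured cord and 52950 (M) and 10906 (F) from injured cord. The deepest SOX9 library, uninjured F, stood apart from the others in depth and had a median promoter level of 4.63 over coding genes, against 2.77 in uninjured M, 3.58 in 1 d.p.i. M and 3.24 in 1 d.p.i. F. Intervals and p-values given here cover counting error or the spread among these libraries only.

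The libraries also shared fragments. Among fragments that overlap no other fragment of their library, 93.5% (uninjured M), 82.3% (uninjured F), 86.0% (1 d.p.i. M) and 91.4% (1 d.p.i. F) of those in the controls matched a SOX9 library in start and in end. A match asks for a fragment start and a fragment end of 1 SOX9 library at these bases, not that both belong to 1 fragment. With the positions shifted, the control shares were 0.164%, 0.114%, 0.0969% and 0.226% in the same order. Between SOX9 libraries the share was 1.66% to 3.93%. In the 10 loci, 18 of 18, 34 of 36, 30 of 33 and 16 of 17 such control fragments matched in the same order of libraries. Few of those there are thus without a match, and the cause of the matches was not tested. The label of sex was checked by coverage of chromosome Y over the library mean, which was 0.331 and 0.187 in the SOX9 libraries from males and 0.0292 and 0.0421 in those from females. In the controls, M and F were not apart, with 0.0600 and 0.0794 in M and 0.0647 and 0.0383 in F. Coverage of chromosome X did not separate the SOX9 libraries by sex. It was 0.371 (uninjured) and 0.306 (1 d.p.i.) in M, and 0.300 and 0.416 in F.

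Promoter coverage was summed over lists of marker genes of cell types (TSS ± 1 kb, where TSS is the transcription start site). The sums describe signal on chromatin and not expression, and the lists differ in length. They are a description and do not check the identity of the tissue. For 8 astrocyte genes the sum was 33.3 (uninjured M), 39.6 (uninjured F), 46.2 (1 d.p.i. M) and 31.1 (1 d.p.i. F), with Slc1a2 the highest at a mean of 14.7. For 7 oligodendrocyte genes it was 89.9, 119, 100 and 70.9 in the same order, with Sox10 the highest at 25.5. For 9 genes of microglia and infiltrating immune cells it was 16.2, 17.7, 23.0 and 18.9, with Spi1 the highest at 5.55. Both 1 d.p.i. values of the microglial and immune list lie above both uninjured values, by a small margin (18.9 against 17.7), and the other lists overlap between conditions. Of all single promoters tested, 8.45% had both 1 d.p.i. libraries above both uninjured ones, and no such share was computed for lists. The 4 genes of oligodendrocyte precursors were led by Olig1 (21.5), the 8 neuronal genes by Tubb3 (19.3), the 5 endothelial genes by Cldn5 (2.33) and the 4 ependymal genes by Foxj1 (14.5). In these last lists the sums over the libraries in the same order were 22.7, 32.9, 34.0 and 31.9 for precursors and 52.0, 70.9, 53.6 and 44.2 for neurons. They were 6.43, 9.46, 7.54 and 11.5 for endothelial cells and 16.7, 39.7, 25.4 and 21.6 for ependymal cells. In each list 0 of the genes tested passed the test between conditions described below, with 7 of the 8 neuronal genes, 3 of the 4 ependymal genes and all genes of the other lists tested. In each list 0 genes had no SOX9 coverage, and the part of cell composition in the values that follow was not tested.

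The enhancers lie at varied distances from the start sites of their genes. IREN17 (chr19:55127098-55127794, mm10) covers the start of Gpam and lies mostly upstream of it, and it overlaps part of the 5′ exons of 3 Gpam transcripts. IREN9 (chr15:25642207-25643023) lies 19682 bp from the TSS of Myo10, IREN21 (chr2:165188998-165190027) 44826 bp from that of Cdh22, and IREN12 (chr6:114448813-114449468) 50877 bp from that of Hrh1. IREN2 (chr9:14588432-14589267) lies 55789 bp from the TSS of Amotl1, IREN23 (chr1:134722777-134723533) 76100 bp from that of Syt2, and IREN14 (chr19:18890210-18890775) 140227 bp from that of Trpm6, near the 3′ end of the gene. Apart from IREN17, these elements touch no annotated exon. IREN13 (chr3:121464505-121465329) is in Slc44a3, 67075 bp from its TSS, but the nearest start site of a coding gene is that of Cnn3, 38008 bp away. IREN4 (chr16:86094361-86094973) is in no gene, and the nearest coding gene, Adamts5, starts 192533 bp from it. The distance to a gene does not show that an element regulates it.

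Promoter coverage was first compared among the genes that act on adhesion, junctions and the actin cytoskeleton. Cnn3 encodes calponin 3, an actin-binding protein, and its promoter had 10.8 (uninjured M), 13.7 (uninjured F), 11.0 (1 d.p.i. M) and 14.4 (1 d.p.i. F) times the library mean. It was the highest of the 10 genes in every SOX9 library, at percentile 85.8 of coding genes by the mean of the 4 SOX9 libraries, and its conditions overlapped. Cdh22 encodes a cadherin, a calcium-dependent adhesion molecule, and its promoter level was 3.92, 9.45, 10.4 and 4.62 in the same order. Each condition of Cdh22 held 1 low and 1 high library. Myo10 encodes a myosin that moves to the tips of filopodia, with a promoter level of 2.07, 4.76, 4.17 and 3.80, lowest in uninjured M. Amotl1 encodes an angiomotin, a junctional scaffold that binds YAP, and its promoter stood at 1.23, 1.80, 0.565 and 1.66. The Amotl1 values rest on 14 fragments over the 4 SOX9 libraries and overlapped between conditions.

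The next genes carry signals or solutes across membranes. Syt2 encodes synaptotagmin 2, a calcium sensor for vesicle release in neurons, and its promoter level was 4.04 (uninjured M), 7.33 (uninjured F), 4.83 (1 d.p.i. M) and 7.62 (1 d.p.i. F). In both conditions the F library was the higher. Slc44a3 encodes a choline transporter-like protein, with a promoter level of 3.96, 2.65, 3.47 and 3.34 in the same order. Hrh1 encodes a histamine receptor coupled to calcium release, and its promoter level was 0.993, 2.46, 0.660 and 0.967. Both 1 d.p.i. values of Hrh1 lay below both uninjured values, by a small margin to uninjured M, on 18 fragments in all. Trpm6 encodes a magnesium channel fused to a kinase, and its promoter level of 1.59, 0.244, 0.684 and 0.746 was the lowest mean of the 10, on 6 fragments.

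The remaining pair act on the extracellular matrix and on lipids. Adamts5 encodes a secreted protease that cleaves aggrecan and related proteoglycans, and its promoter level was 2.40 (uninjured M), 1.73 (uninjured F), 1.54 (1 d.p.i. M) and 1.28 (1 d.p.i. F). Gpam encodes a mitochondrial acyltransferase that starts the synthesis of glycerolipids, with a promoter level of 2.12, 1.71, 0.598 and 1.1 in the same order. For both genes the 1 d.p.i. values lay below the uninjured values, on 18 SOX9 fragments each.

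**Figure D1:**
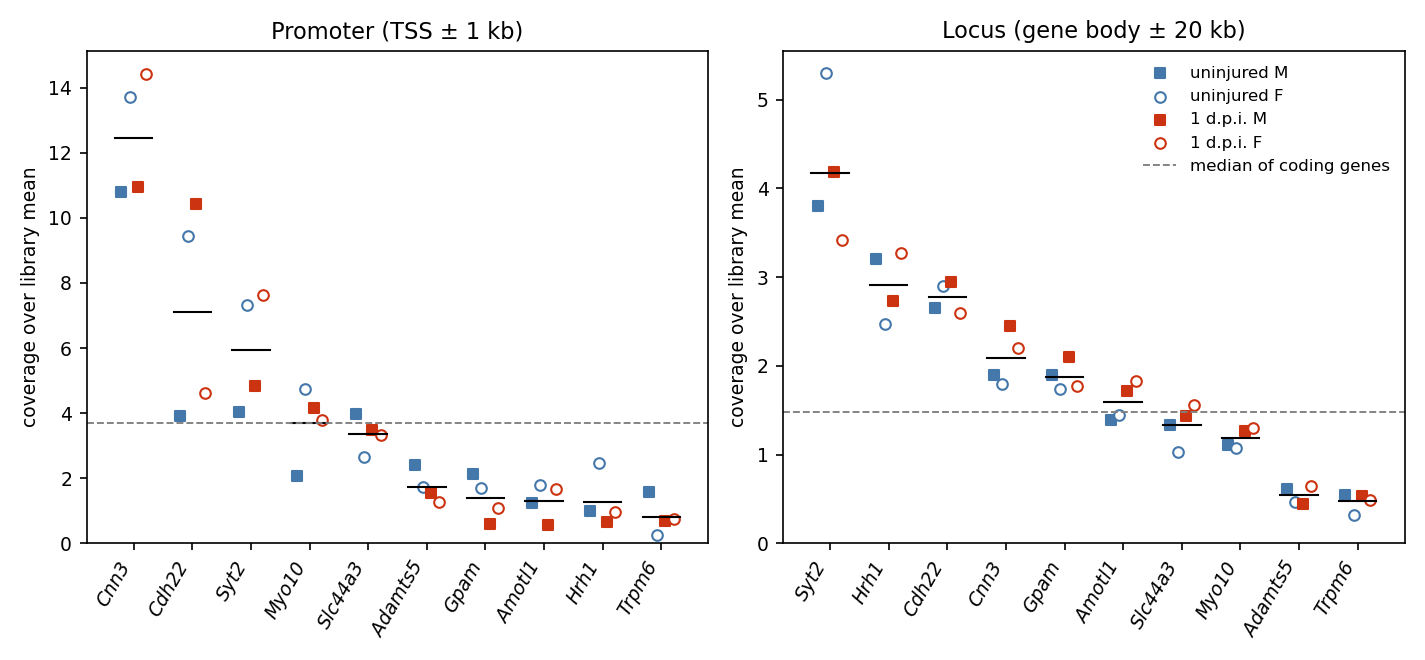
Coverage over the library mean (y axis, no unit) at the promoter (left, TSS ± 1 kb) and over the locus (right, gene body ± 20 kb) for the 10 genes, with 1 point for each SOX9 library, the mean of the 4 libraries as a black line and the median of all coding genes dashed. Cnn3 has the highest mean promoter level (12.5) and Syt2 the highest mean locus level (4.17), and Trpm6 is the lowest on both scales (0.816 and 0.473).

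In order of the mean over the 4 SOX9 libraries, promoter levels ran from Cnn3 (12.5 ± 1.87, SD, n = 4 libraries) through Cdh22 (7.10 ± 3.31), Syt2 (5.95 ± 1.79), Myo10 (3.70 ± 1.15), Slc44a3 (3.35 ± 0.543), Adamts5 (1.74 ± 0.481), Gpam (1.38 ± 0.672), Amotl1 (1.31 ± 0.555) and Hrh1 (1.27 ± 0.807) to Trpm6 (0.816 ± 0.562). Neighbours in this order had overlapping ranges except Cnn3 and Cdh22, and Slc44a3 and Adamts5. The median of the 10 was 2.54, against 3.70 over all coding genes, and 3 of the 10 were above that median. The controls held 1 fragment at the Cdh22 promoter and 1 at the Gpam promoter, both in uninjured M, and 0 at the other 8 promoters in all 4 control libraries.

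Promoters whose 1 d.p.i. libraries both lay below both uninjured libraries numbered 3 of 10 (Hrh1, Adamts5 and Gpam), where 14.7% of the 18171 promoters tested did so, and those with both above numbered 0 of 10, against 8.45% of promoters. The count of 3 fell to 2 under scaling by a trimmed mean of log ratios and to 1 when the SOX9 libraries were thinned to the depth of the smallest. In the limma fit over all promoters, which tests log2(coverage over the mean + 0.5), 0 of 10 passed an adjusted p of 0.05, against 0.0055% of promoters (1 of 18171), and 0 of 10 had an unadjusted p under 0.05. The fitted log2 change at 1 d.p.i. ranged from -0.86 (SE 0.811) at Gpam to 0.29 (SE 0.682) at Myo10, with a median of 0.0041 over the 10 and of -0.067 over all promoters. The change at Gpam was -1.41 after thinning and -0.46 with a pseudocount of 2. The median over all promoters moved to -0.46 without uninjured M and to 0.29 without uninjured F, and the call at 1 promoter was lost when any 1 of the 4 libraries was left out. With uninjured F left out, the changes at Myo10 (0.80), Cdh22 (0.76) and Syt2 (0.54) were above the 0.29 of all promoters. Those at Amotl1 (-0.19), Hrh1 (-0.19), Trpm6 (-0.78), Slc44a3 (-0.19), Cnn3 (0.21), Adamts5 (-0.61) and Gpam (-0.99) were below it, so the order of the medians depends on this library. Without uninjured M the fitted change switched direction at Myo10 (-0.23), Trpm6 (0.71), Cnn3 (-0.12), Cdh22 (-0.41) and Syt2 (-0.25), and without uninjured F at Slc44a3 (-0.19). Without 1 d.p.i. M it did so at Amotl1 (0.11) and Cdh22 (-0.37), and without 1 d.p.i. F at Cnn3 (-0.15) and Syt2 (-0.16). An exact two-sided permutation test of 2 against 2 libraries cannot give a p below 0.333, so no single gene could pass it.

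Coverage over whole loci, from 20 kb before to 20 kb past the gene body, rests on more fragments, from 220 at Adamts5 to 3554 at Syt2 in the SOX9 libraries. Among the adhesion and cytoskeleton genes, Amotl1 had 1.39 (uninjured M), 1.45 (uninjured F), 1.71 (1 d.p.i. M) and 1.82 (1 d.p.i. F) times the library mean. Myo10 had 1.11, 1.07, 1.26 and 1.3 in the same order. Cnn3 had 1.90, 1.80, 2.45 and 2.2. In these 3 loci both 1 d.p.i. libraries were above both uninjured libraries. Cdh22 had 2.65, 2.9, 2.94 and 2.59, with conditions that overlapped.

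Among the genes for receptors, channels, transporters and vesicle release, Slc44a3 had a locus level of 1.33 (uninjured M), 1.03 (uninjured F), 1.44 (1 d.p.i. M) and 1.55 (1 d.p.i. F), again higher in both 1 d.p.i. libraries. The Slc44a3 and Cnn3 loci share 38.7 kb, which includes IREN13, so that their values are not independent. Syt2 had 3.80, 5.30, 4.18 and 3.41, Hrh1 had 3.20, 2.47, 2.73 and 3.27, and Trpm6 had 0.545, 0.315, 0.539 and 0.491. Each of these 3 overlapped between conditions, with uninjured F the highest library at Syt2 and the lowest at Hrh1 and Trpm6. Adamts5 had 0.609, 0.469, 0.440 and 0.641, and Gpam had 1.89, 1.74, 2.1 and 1.78, and these overlapped too.

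By their mean, locus levels ran from Syt2 (4.17 ± 0.814, SD, n = 4 libraries) through Hrh1 (2.92 ± 0.386), Cdh22 (2.77 ± 0.174), Cnn3 (2.09 ± 0.296), Gpam (1.88 ± 0.161), Amotl1 (1.59 ± 0.208), Slc44a3 (1.34 ± 0.226), Myo10 (1.19 ± 0.112) and Adamts5 (0.540 ± 0.10) to Trpm6 (0.473 ± 0.108). Ranges of neighbours overlapped except between Syt2 and Hrh1, Cdh22 and Cnn3, and Myo10 and Adamts5. The median of the 10 loci was 1.74 and that of all coding genes 1.48, and 6 of the 10 were above it. The order differs from that of the promoters, since Hrh1 was 2nd among loci and 9th among promoters.

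Loci with both 1 d.p.i. libraries above both uninjured libraries numbered 4 of 10, against 12.3% of the 20930 loci tested, and those with both below numbered 0 of 10, against 12.2%. The 4 were Amotl1, Myo10, Slc44a3 and Cnn3, and the count was also 4 under scaling by a trimmed mean of log ratios and after thinning. By limma, 0 of 10 loci passed an adjusted p of 0.05, against 0.0812% of loci (17 of 20930), and 0 of 10 had an unadjusted p under 0.05. The largest fitted log2 changes were 0.27 (SE 0.190) at Cnn3, 0.25 (SE 0.152) at Slc44a3 and 0.24 (SE 0.162) at Amotl1, each with an adjusted p of 1.00 and higher in 2 of 2 libraries. Myo10 followed at 0.16 (SE 0.149), and the lowest change was -0.22 (SE 0.296) at Syt2. The change at Syt2 was -0.0049 without uninjured F, -0.093 without 1 d.p.i. F, -0.35 without 1 d.p.i. M and -0.44 without uninjured M, and that at Slc44a3 was 0.12 without uninjured F and 0.39 without uninjured M. The median over the 10 was 0.11, against -0.018 over all loci. With uninjured F left out, the median over all loci was 0.033. Changes at Amotl1 (0.26), Myo10 (0.15), Slc44a3 (0.12), Cnn3 (0.23) and Cdh22 (0.049) were then above it. Those at Hrh1 (-0.084), Trpm6 (-0.042), Syt2 (-0.0049), Adamts5 (-0.099) and Gpam (0.025) were below it, so the gap depends on this library. The number of loci called rested on single libraries, with 250 without uninjured M, 218 without uninjured F, 3 without 1 d.p.i. M and 3 without 1 d.p.i. F, and in all 16 settings 0 of the 10 loci were called.

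**Figure D2:**
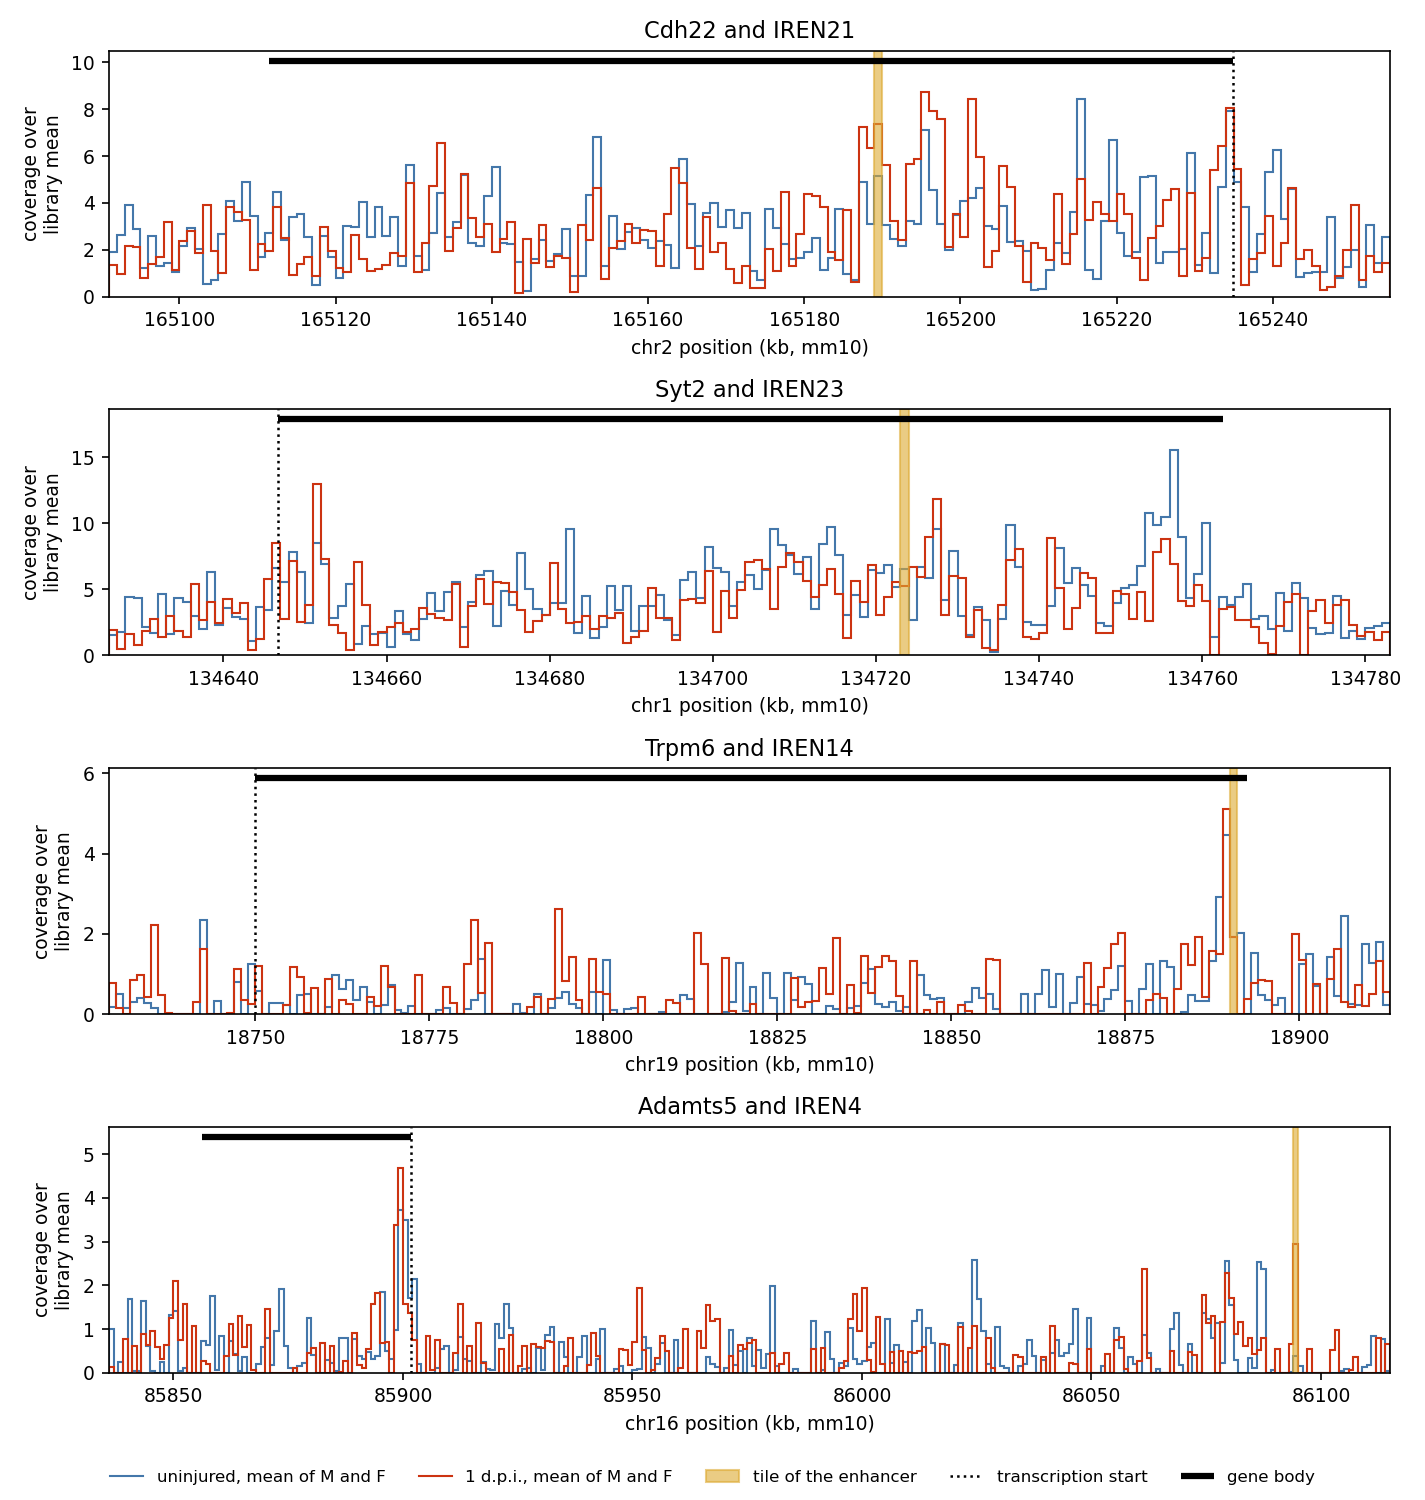
Coverage over the library mean (y axis, no unit) in 1-kb tiles along 4 loci (x axis, position in kb), as the mean of M and F for uninjured and for 1 d.p.i. samples, with the tile of the enhancer shaded, the transcription start dotted and the gene body as a bar. The Cdh22 and Syt2 loci have coverage along their whole length (median tile 2.43 and 3.75), whereas in the Trpm6 and Adamts5 loci the median tile is 0.323 and 0.302.

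Within each locus the tile of 1 kb with the highest mean over the SOX9 libraries was located. It held the TSS in 2 of the 10, Cnn3 (mean 17.6) and Cdh22 (mean 7.98). At Gpam it lay inside the gene (mean 11.9, chr19:55099001-55100000), 27738 bp from the TSS, where an internal Gpam transcript and an antisense transcript begin. At Hrh1 it lay past the gene (mean 27.7, chr6:114499001-114500000), where 88.1% of bases are annotated as repeats, and it was the highest tile in all 4 SOX9 libraries. Without that tile the mean Hrh1 level was 2.72 in place of 2.92, and the tile held 7.58% of the coverage of the locus.

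At Trpm6 the highest tile (mean 4.78, chr19:18889001-18890000) holds an exon and directly adjoins the tile of IREN14. The highest tile of the Slc44a3 locus (mean 6.58) is in Cnn3, and that of the Syt2 locus (mean 11.2) overlaps an exon of the neighbour Ppp1r12b. At Adamts5 it (mean 4.20) lay 2328 bp from the TSS and held an exon. At Myo10 it (mean 6.43) also held an exon, 151975 bp from the TSS, and at Amotl1 it (mean 7.93) was intronic. In the 4 SOX9 libraries the Amotl1 tile had 2.43 (uninjured M), 3.42 (uninjured F), 9.76 (1 d.p.i. M) and 16.1 (1 d.p.i. F), so that both 1 d.p.i. libraries were above both uninjured ones in a tile chosen after its values were seen.

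The enhancers themselves were read over their exact intervals. Over the 9 enhancers the SOX9 libraries held 125 fragments, from 5 to 35 for each element, and the controls held 1. The enhancer in Syt2, IREN23, had 6.22 (uninjured M), 9.92 (uninjured F), 7.23 (1 d.p.i. M) and 5.47 (1 d.p.i. F) times the library mean, on 35 fragments. The enhancer in Cdh22, IREN21, had 6.71, 3.58, 9.17 and 5.58 in the same order, on 34 fragments. These elements were the highest of the 9, and both overlapped between conditions.

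The other 7 enhancers were covered by at most 13 SOX9 fragments each. IREN14, in Trpm6, had 3.78 (uninjured M), 1.71 (uninjured F), 6.82 (1 d.p.i. M) and 0 (1 d.p.i. F) on 13 fragments. It was the highest of these 7 by its mean, although 1 library had no fragment, a count that allows up to 3 fragments. IREN2, in Amotl1, had 2.44, 1.44, 0.566 and 3.96 in the same order, and IREN9, in Myo10, had 0, 1.06, 0.961 and 2.92. Both overlapped between conditions. IREN12, in Hrh1, had 3.65, 1.02, 0.458 and 0, and IREN17, at the start of Gpam, had 2.87, 1.91, 0.926 and 1.62. In these elements both 1 d.p.i. libraries were below both uninjured ones, on 5 and 8 fragments. IREN4, upstream of Adamts5, had 0.744, 0, 1.59 and 4.54, and IREN13, in Slc44a3, had 0.362, 0.697, 1.02 and 1.39. Here both 1 d.p.i. libraries were above both uninjured ones, on 5 and 7 fragments.

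Thus 2 of the 9 enhancers were above and 2 below in both 1 d.p.i. libraries, and 5 overlapped. Among the 876139 tiles of the genome with a mean in the range of the enhancers, 16.9% were above and 15.7% below in this way. The direction at IREN13 depended on the boundaries, since the 1-kb tile that holds 496 bp of its 825 bp had 1.38 (uninjured M), 0.863 (uninjured F), 0.473 (1 d.p.i. M) and 0.212 (1 d.p.i. F), the reverse of the interval itself. Of the 9 tiles that hold most of each enhancer, 2 reached the mean coverage of 2 required for the test. In the limma fit over all tiles 0 of these 2 passed an adjusted p of 0.05, against 0.0199% of the 336759 tiles tested (67 tiles), and 0 of 2 had an unadjusted p under 0.05. The fitted log2 change was 0.49 (SE 0.650, adjusted p 0.991) at IREN21 and -0.33 (SE 0.654, adjusted p 0.992) at IREN23. The change at IREN21 was 0.082 without uninjured F, 0.13 without 1 d.p.i. M, 0.84 without 1 d.p.i. F and 0.90 without uninjured M, and 0.91 with the tile grid shifted. That at IREN23 was 0.0075 without 1 d.p.i. F and -0.66 without 1 d.p.i. M, and -0.058 with the grid shifted. The count of 67 tiles became 0 without uninjured M, 1 without uninjured F, 103 without 1 d.p.i. M and 11 without 1 d.p.i. F.

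Against the rest of the genome, the enhancer tiles stood at percentile 98.5 (IREN21), 98.3 (IREN23), 86.9 (IREN14), 83.9 (IREN4), 79.4 (IREN17), 72.8 (IREN9), 71.1 (IREN2), 68.3 (IREN12) and 61.7 (IREN13) of the 2725511 tiles by mean SOX9 coverage. By this mean all 9 were above the median tile of 0.488, and 2 were in the top 10%. Within a condition, IREN4 stood at percentile 49.1 in uninjured samples and 92.6 at 1 d.p.i. At 1 d.p.i. IREN12 stood at 38.2 and IREN13 at 44.8, against 83.0 and 73.3 in uninjured samples. The intervals of IREN4, IREN12 and IREN13 held only 5, 5 and 7 SOX9 fragments, and the tile of IREN13 moved opposite to its interval. With the tile grid shifted, the 1 d.p.i. mean of the IREN4 tile was 1.15 in place of 2.95. Against the 5 kb on each side, 7 of 9 enhancer intervals had the higher mean, by ratios with a median of 1.47 over the 9 and a range of 0.704 (IREN17) to 11.0 (IREN4). Only IREN21 and IREN23 were above their flanks in all 4 SOX9 libraries. No background share of intervals above their flanks was computed. The flanks of IREN4 had a mean of 0.156, so that its ratio rests on a surrounding region nearly without fragments.

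**Figure D3:**
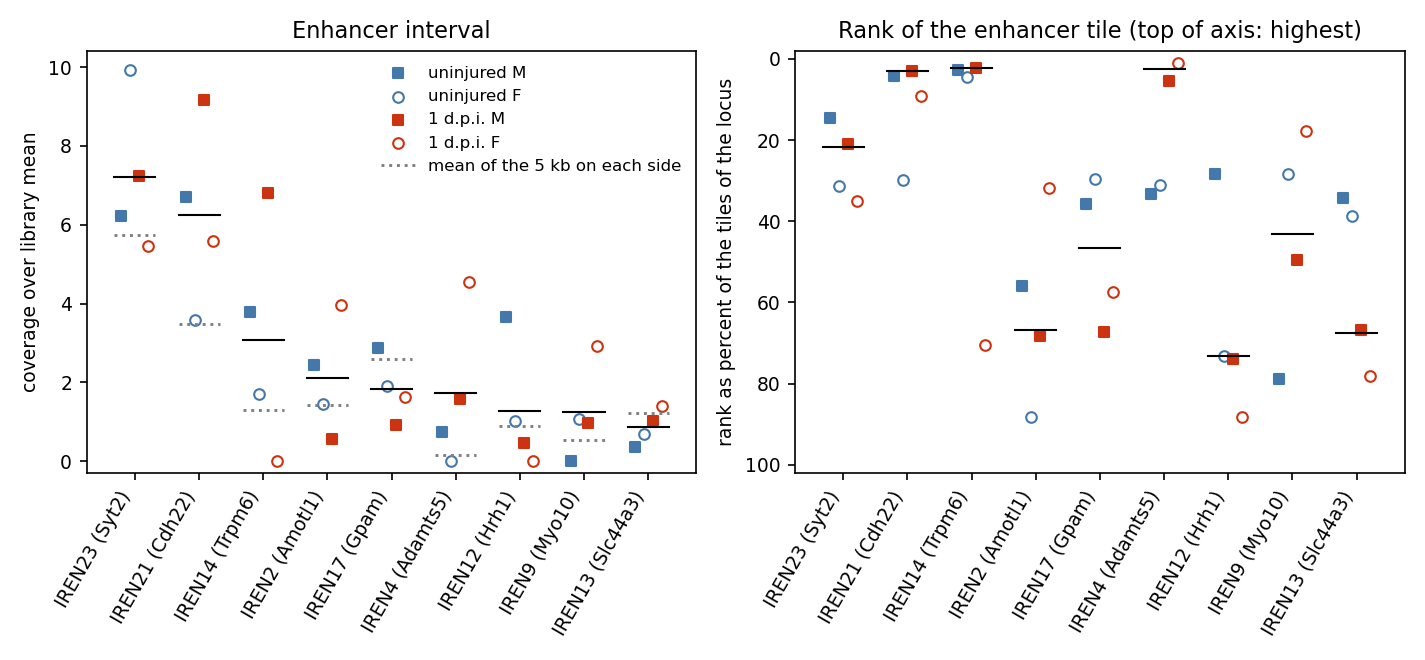
Left, coverage over the library mean (y axis, no unit) in each enhancer interval for the 4 SOX9 libraries, with the mean as a black line and the mean of the flanking 5 kb on each side dotted. Right, the rank of the enhancer's 1-kb tile within its own locus as a percent of the tiles (y axis, 0 at the top for the highest), with the rank of the mean over libraries as a line. IREN14, IREN21 and IREN4 rank near the top (2.17%, 3.05% and 2.51% by the mean), and IREN14 falls to 70.4% in 1 d.p.i. F.

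Rank within the locus asks whether the enhancer stands out from its own surroundings. By the mean of the SOX9 libraries, IREN14 was 4th of 184 tiles in the Trpm6 locus, IREN21 was 5th of 164 in the Cdh22 locus and IREN4 was 7th of 279 in a locus of Adamts5 extended to 20 kb past the enhancer. IREN14 ranked 5th (uninjured M), 8th (uninjured F) and 4th (1 d.p.i. M), but at 129.5 in 1 d.p.i. F, where it was tied at 0 with 109 other tiles. IREN21 ranked 7th, 49th, 5th and 15th in the order uninjured M, uninjured F, 1 d.p.i. M and 1 d.p.i. F. IREN4 ranked at 93, 86.5, 15 and 3 in that order, higher in both 1 d.p.i. libraries. Without 1 d.p.i. F the rank of IREN4 went from 2.51% to 12.9% of the tiles, and without 1 d.p.i. M those of IREN14 and IREN21 went from 2.17% to 5.98% and from 3.05% to 7.93%. Without uninjured M that of IREN21 was 6.1% and that of IREN4 1.43%, and without uninjured F that of IREN21 was 1.83%. With the tile grid shifted by 500 bp, IREN4 fell to 56th of 280 tiles. The shifted tile of IREN14 was 1st of 184, but it holds part of the enhancer and part of the adjoining tile that was the highest of the locus, and it had 1.91 in 1 d.p.i. F, where the enhancer itself had 0.

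The other enhancers were further down. IREN23 was 34th of 157 tiles in the Syt2 locus, where 52 tiles had a mean of at least 5. IREN17 was 47th of 101 (Gpam), IREN9 100th of 232 (Myo10), IREN2 97th of 145 (Amotl1) and IREN12 93rd of 127 (Hrh1). IREN13 was 77th of 114 in the Slc44a3 locus and 58th of 73 in the Cnn3 locus. Of these enhancers IREN2 was the most sensitive to the grid, at 22nd of 144 tiles after the shift. In the Trpm6 locus 33 of 184 tiles had no SOX9 fragment in any library, and in the extended Adamts5 locus 48 of 279, so that few fragments are enough for a high rank there.

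Sequence was examined for letters that the rule did not use. AP-1 sites (TGACTCA or TGAGTCA, which are reverse complements), SOX cores (ACAATG or ACAAAG and their reverse complements CATTGT and CTTTGT) and nuclear factor I sites (TTGGC and GCCAA with 5 bases between them, read alike on both strands) were searched in the middle 500 bp of each enhancer. AP-1 letters were present in 7 of 9 enhancers, against 7.67% of 5294579 windows of the same length across the genome. SOX cores were present in 5 of 9, against 56.7% of windows, which is close to that share. Both kinds were present in 4 of 9, against 4.29%. Of the 405966 windows of the genome with AP-1 letters, 226945 also held a SOX core. The count for both kinds therefore follows from the AP-1 count and shows no pairing of the 2 kinds. Nuclear factor I letters were present in 0 of 9, against 0.0290% of windows. This pattern asks for TTGGC together with GCCAA, without mismatch and 5 bases apart. It is so rare that a count of 0 of 9 cannot show that such sites are lacking. Shorter or inexact nuclear factor I sites were not searched. The study selected its enhancers with models of sequence and accessibility in which AP-1 and astrocyte factors had a part. The counts for AP-1 and for both kinds are thus a description of that selection. A match is not evidence of a bound site.

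The AP-1 matches in the middle 500 bp are shown to let their surroundings be compared, each with 10 bases on either side, on the plus strand of GRCm38 (mm10) and with the match in capitals. IREN17 and IREN23 had no such match, and IREN4 and IREN14 had 2 each. Over the whole enhancer IREN13 and IREN21 also had 2 each, of which 1 lies outside the stretch searched.
IREN2 in Amotl1 (chr9:14588816-14588842): caccacagagTGAGTCAgaatgaataa
IREN4 upstream of Adamts5 (chr16:86094658-86094684): aaagcataagTGACTCAaggtccactg
IREN4 upstream of Adamts5 (chr16:86094706-86094732): agcatggtgaTGAGTCAttgaagctac
IREN9 in Myo10 (chr15:25642581-25642607): aattaaggtaTGACTCAatgtcctgta
IREN12 in Hrh1 (chr6:114449066-114449092): ccctagctggTGAGTCAccgcaaatgt
IREN13 in Slc44a3 (chr3:121464952-121464978): agccccctgaTGAGTCAgtaagacaaa
IREN14 in Trpm6 (chr19:18890435-18890461): cgtgaatatcTGACTCAtccctcagtt
IREN14 in Trpm6 (chr19:18890508-18890534): ctgccctgtcTGACTCActgtagcccg
IREN21 in Cdh22 (chr2:165189685-165189711): gaggggggagTGAGTCAcagggcaggc

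The 200 bp around the point of highest mean SOX9 coverage are shown for the enhancer with the best rank in its locus, IREN14, and for the enhancer with the highest mean level, IREN23. Both are from the plus strand of GRCm38 (mm10), with AP-1 letters in capitals in IREN14 and a SOX core in capitals in IREN23. At the point of highest coverage IREN14 had a height of 2 (uninjured M), 3 (uninjured F), 4 (1 d.p.i. M) and 0 (1 d.p.i. F) fragments, and both of its AP-1 matches fell within the window. IREN23 had 2, 10, 4 and 1 fragments in the same order.
IREN14 in Trpm6 (chr19:18890379-18890578): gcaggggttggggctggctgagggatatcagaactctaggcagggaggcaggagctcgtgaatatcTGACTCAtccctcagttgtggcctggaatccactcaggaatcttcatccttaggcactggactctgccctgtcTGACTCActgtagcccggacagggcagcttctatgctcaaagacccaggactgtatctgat
IREN23 in Syt2 (chr1:134723030-134723229): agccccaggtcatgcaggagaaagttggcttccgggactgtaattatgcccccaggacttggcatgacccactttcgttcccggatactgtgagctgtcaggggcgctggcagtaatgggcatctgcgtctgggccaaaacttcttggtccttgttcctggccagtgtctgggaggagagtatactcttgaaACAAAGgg

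The secondary-only controls were compared with the SOX9 libraries over the loci. Over the 10 loci the SOX9 libraries held 13039 fragments and the controls 109, with fragments in the stretch shared by Slc44a3 and Cnn3 counted in each. As a share of the fragments of the library group, the ratio of SOX9 to control was 1.2 at Amotl1 (95% interval 0.632 to 2.62, from 9 control fragments), 1.31 at Cdh22 (0.820 to 2.25, from 17) and 1.09 at Syt2 (0.769 to 1.61, from 31). At Slc44a3 it was 0.624 (0.349 to 1.25, from 11). For all 8 loci with control fragments the interval included 1. Nearly all stand-alone control fragments in these loci match a SOX9 library in start and in end. These ratios therefore cannot be taken as set against an independent background, and enrichment by the antibody cannot be read from them. Trpm6 and Adamts5 had 0 fragments in all 4 controls, and the lower end of the same interval was 1.01 at Trpm6 and 0.568 at Adamts5.

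In the limma fit of all 8 libraries, 2 of 10 loci passed an adjusted p of 0.05 for SOX9 against control, where 9.62% of loci did (2014 of 20930). They were Trpm6 (log2 difference 0.95, SE 0.131, adjusted p 0.00705) and Adamts5 (log2 difference 1.05, SE 0.137, adjusted p 0.00633). All 4 controls were at 0 in both loci, so that any SOX9 coverage is higher than every control. Both log2 differences depend on the pseudocount for the same reason, and became 0.30 and 0.34 with a pseudocount of 2 and 2.5 and 2.66 with a pseudocount of 0.1. Leaving out a control left them at 0.95 and 1.05, since the remaining controls were also at 0. With each SOX9 library left out they ranged from 0.86 to 1.04 and from 0.98 to 1.12. When the SOX9 libraries were thinned to the depth of their controls both calls were lost, with log2 differences of 0.61 at Trpm6 and 1.77 at Adamts5, and 0 loci were called in all. Under scaling by a trimmed mean of log ratios 20298 loci and all 10 of these were called, so that the number called depends on the scaling. The fitted difference switched direction at Myo10 (-0.00044 to 1.27), Slc44a3 (-0.98 to 0.84), Cnn3 (-0.38 to 1.39), Syt2 (-0.088 to 1.87) and Gpam (-0.23 to 1.44). The scaling factors were 3.64 to 12.4 in controls and 0.888 to 1.09 in SOX9 libraries, so these switches follow from the scaling and describe no single gene. Across coding genes, 86.6% of the 2003 loci with no control fragment were called higher in SOX9, against 1.44% of the other 18927. Thus the 2 loci called are the 2 with the lowest SOX9 coverage of the 10, and the absence of control fragments there cannot be told apart from their low number. Without control 1 d.p.i. M the log2 difference was -1.53 at Slc44a3 and -1.06 at Cnn3. Without control 1 d.p.i. F, which held 3 fragments at Slc44a3 and 1 at Cnn3, it was -0.42 and 0.30.

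Each gene was set beside its paralogues, with coverage per length as before. Cnn3 had the highest promoter of the 3 calponins (12.5, against 4.50 at Cnn2 and 1.96 at Cnn1) but the lowest locus level (2.09, against 7.20 at Cnn2). Among 3 angiomotins the Amotl1 promoter was the lowest (1.31, against 7.42 at Amotl2). Of 4 related myosins, Myo10 was 2nd at the promoter (3.70, behind Myo7a at 5.83) and lowest over the locus (1.19). Of 13 cadherins of its class, Cdh22 was 2nd over the locus (2.77, behind Cdh24 at 3.76) and 4th at the promoter (7.10).

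Among membrane proteins, Trpm6 was the lowest of 8 TRPM channels on both scales, where the family medians were 4.13 at promoters and 2.01 over loci. Syt2 was 3rd of 17 synaptotagmins over the locus (4.17, family median 1.62) and 8th at the promoter (5.95, family median 5.29). Hrh1 was 2nd of 4 histamine receptors over the locus (2.92, behind Hrh3 at 4.14) and 3rd at the promoter. Slc44a3 was 4th of 5 choline transporter-like genes on both scales. Adamts5 had the lowest locus of 7 related ADAMTS proteases (0.540, family median 0.975), and Gpam the lowest promoter of 9 acyltransferases (1.38, family median 3.81). These orders are of means over the 4 SOX9 libraries and were not tested.

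The coding genes whose promoter levels were most like those of Cnn3 over the 4 SOX9 libraries were Rplp0 (distance 0.135), Tsr1 (0.140) and St13 (0.146), by Euclidean distance on log2(coverage over the mean + 0.5). The median distance of all coding genes from Cnn3 was 3.71. Rplp0 had promoter levels of 10.2 (uninjured M), 12.9 (uninjured F), 11.4 (1 d.p.i. M) and 14.4 (1 d.p.i. F). These genes were picked by these same values, so their likeness to Cnn3 follows from the choice.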

How the data were processed

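SOX9 CUT&Tag and secondary-only controls were measured in 8 libraries. Per the processing notes of the submitters, reads were demultiplexed with deML, read pairs were mapped to mm10 with Bowtie2 2.5.4, Picard 3.4.0 served to remove duplicates, and SEACR 1.3 to call peaks. The deposited signal is each library's coverage, as whole numbers of fragments over each stretch of the genome, without scaling for depth. The step that wrote it is not stated.

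Fragments were rebuilt from the rises and falls of the coverage, which restores the coverage but can pair ends that were not together. A fragment was counted in a region when it overlapped it. The groups held 2 libraries each, and the SOX9 libraries ranged from 1891276 to 7216730 fragments and the controls from 10906 to 52950. Coverage was averaged over promoters (TSS ± 1 kb, from the 5′ end of the gene), loci (gene body ± 20 kb), enhancers and 1-kb tiles, and divided by the library mean over 21 chromosomes of GRCm38 with GENCODE M21 genes. Symbols that occur more than once (27) were left out.

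Changes at 1 d.p.i. were fitted by limma 3.58.1 (R 4.3.3) to log2(coverage over the mean + 0.5) in the 4 SOX9 libraries, with a mean-variance trend and Benjamini-Hochberg adjustment over every locus, promoter or tile with a mean of at least 0.2, 0.5 or 2, and an adjusted p under 0.05 was the threshold. SOX9 was compared with control in a fit of all 8 libraries. In that comparison each SOX9 library shares its nuclei sample with a control, and the pairing was used as an alternative. Ranks give ties their mean rank. Other steps used Python 3.11.15, numpy 2.4.6, pandas 2.3.3, scipy 1.17.1, pysam 0.24.0, matplotlib 3.10.9 and samtools 1.23.1. Intervals on fragment counts are exact Poisson intervals at the 95% level.

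The fit and the coverage sums were tested on simulated data. The members, marker lists and gene families were chosen with earlier results of these data known. The named genes are all 10 listed genes, in each locus the tile of the enhancer and the highest tile, at most 3 genes of a family, and the 3 genes nearest to the member with the highest promoter. The neighbour Ppp1r12b and the highest gene of each marker list were named after their values were seen. Alternatives covered scaling, pseudocount, filter, region bounds, tile size and grid, depth, trend, blocks and each library left out.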

Additional observations from a re-analysis of the deposited data

Results flagged for a closer look

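In 12 of the values described, the M samples and the F samples moved in opposite directions between uninjured and 1 d.p.i., and these are given as log2 changes in M and F and their difference, F minus M. The M and F samples of a condition are different animals, each sex has 1 library per condition, and a difference between M and F was not tested for any of them. Over all loci tested 66.2% moved in opposite directions in M and F, and over all promoters 64.0%, so that the shares among the 10 genes (5 loci and 4 promoters) are not above the background.

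Among loci, the changes were -0.20 in M and 0.35 in F at Hrh1 (difference 0.54), -0.01 and 0.28 at Trpm6 (0.29), and -0.24 and 0.24 at Adamts5 (0.47). At Cdh22 they were 0.13 and -0.14 (difference -0.26), and at Syt2 0.12 and -0.57 (-0.69). Among promoters, the changes were 0.86 in M and -0.29 in F at Myo10 (difference -1.15), -0.82 and 0.74 at Trpm6 (1.56), -0.17 and 0.28 at Slc44a3 (0.45), and 1.31 and -0.96 at Cdh22 (-2.26).

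Among the enhancers 3 of 9 did so, with no background share computed for them. IREN2 changed by -1.47 in M and 1.2 in F (difference 2.67), IREN14 by 0.77 and -2.14 (-2.92), and IREN23 by 0.20 and -0.80 (-1.0). These rest on 10, 13 and 35 SOX9 fragments. Since IREN14 had 0 fragments in 1 d.p.i. F, its change in F and its difference are set by the pseudocount of 0.5 and give no size.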

How the results depend on the processing

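Of 658 values recomputed under an alternative, 550 kept their direction and their side of the threshold, or stayed within the spread between libraries or within 1.5 times for counts. Reversals numbered 56, all in fitted log2 values of single genes or tiles, and 45 counts or ranks moved further. The rest gained (5) or lost (2) a call, all for SOX9 against control. In every fit of the change at 1 d.p.i. (16 for loci, 17 for promoters and 15 for tiles), 0 of the 10 genes and 0 of the enhancer tiles tested were called, with a smallest adjusted p of 0.165 at Slc44a3, 0.653 at Myo10 and 0.767 at IREN21. The cause was not tested for any change given below.

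The number of loci called at 1 d.p.i. (17) became 1 with scaling by a trimmed mean of log ratios, 28 with each library centred on its median, 0 with all 8 libraries in the fit, 6 with sex as a replicate block, 0 with no mean-variance trend and 0 over the gene body alone. It ranged from 3 to 250 when each library was left out. The number of promoters called (1) became 0 with the trimmed mean, 7 when centred, 0 with no filter, 0 with all 8 libraries, 0 after thinning to the smallest library and 0 for TSS ± 500 bp, and was 0 to 0 with each library left out. The number of tiles called (67) became 20 with the trimmed mean, 38 with a pseudocount of 2, 41 with a minimum mean of 1, 0 with all 8 libraries, 23 with sex as a block, 0 with no trend and 20 after thinning, and ranged from 0 to 103 with each library left out. The number of loci called for SOX9 against control (2014) became 20298 with the trimmed mean, 0 with SOX9 libraries thinned to their controls, and 1184 to 6183 with each library left out. With nuclei sample as a block it was 2127, and Trpm6 and Adamts5 were called there too. Leaving out a library leaves a group with 1 sample, which is assumed to vary like the other groups.

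Of fitted log2 changes of loci, Cdh22 became 0.0038 when centred and 0.054 over the gene body alone, and Adamts5 became 0.0074 when centred, 0.00027 with a pseudocount of 2, 0.054 after thinning and 0.053 with 50 kb on each side. With each library left out the ranges were -0.084 to 0.23 at Hrh1, -0.042 to 0.32 at Trpm6, -0.082 to 0.072 at Cdh22, -0.14 to 0.14 at Adamts5 and -0.023 to 0.17 at Gpam. Without a change of direction they were -0.44 to -0.0049 at Syt2 and 0.12 to 0.39 at Slc44a3.

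Of promoters, Amotl1 became 0.31 for TSS ± 2 kb and 0.066 for the principal transcript. Thinning gave -0.02 at Myo10, -0.07 at Cnn3 and -0.10 at Cdh22. Trpm6 became 0.053 when centred, 0.096 with a pseudocount of 0.1 and 0.081 for TSS ± 2 kb. For TSS ± 500 bp, Slc44a3 became -0.25 and Cnn3 -0.27. With each library left out the ranges were -0.91 to 0.11 at Amotl1, -0.23 to 0.80 at Myo10, -0.78 to 0.71 at Trpm6, -0.19 to 0.31 at Slc44a3, -0.15 to 0.24 at Cnn3, -0.41 to 0.76 at Cdh22 and -0.25 to 0.54 at Syt2. The tile of IREN23 ranged from -0.66 to 0.0075 and that of IREN21 from 0.082 to 0.90. With the grid shifted they were -0.058 and 0.91, and after thinning -0.14 and 0.64.

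For SOX9 against control, thinning to the controls gave -1.16 at Amotl1, -0.95 at Hrh1, -0.68 at Cdh22 and 0.13 at Syt2. The trimmed mean, under which all 10 loci were called, gave 1.27 at Myo10, 0.84 at Slc44a3, 1.39 at Cnn3, 1.87 at Syt2 and 1.44 at Gpam, and a pseudocount of 0.1 gave 0.012 at Myo10. With each library left out the ranges were -0.19 to 0.19 at Myo10, -0.051 to 0.27 at Hrh1, -1.06 to 0.30 at Cnn3, -0.28 to 0.10 at Syt2 and -0.81 to 0.35 at Gpam.

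Ranks of enhancer tiles, as a percent of the tiles of the locus, moved by more than the spread between libraries at Amotl1 (31.9 with tiles of 500 bp, 37 with tiles of 2 kb, 15.3 with the grid shifted and 26.9 by fragment midpoints), Hrh1 (44.4 with tiles of 500 bp), Cnn3 (60.3 after thinning), Syt2 (9.27 with tiles of 500 bp), Adamts5 (20 with the grid shifted) and Gpam (64.7 with tiles of 2 kb). With each library left out, ranks stayed within that spread, which is wide, and ranged from 1.43 to 12.9 at Adamts5, 1.63 to 5.98 at Trpm6 and 1.83 to 7.93 at Cdh22. Genes above the median of coding genes numbered 6 for loci in every alternative and 3 or 4 for promoters. In whole enhancers, AP-1 letters were in 7, SOX cores in 6 and nuclear factor I letters in 0. The count of 0 again rests on a pattern too rare to show that such sites are lacking. These levels, motif counts, ranks with a library left out, and the counts of regions with conditions that do not overlap under other scaling or depth were chosen after seeing the data.

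Depth limits the enhancers, with 5 to 35 SOX9 fragments each, the promoters, with as few as 6, and the controls, with 0 to 31 fragments in a locus. With 2 libraries per condition, 1 per sex, sex and animal cannot be told apart, and the controls differ from the SOX9 libraries in depth as well as antibody. Levels describe bulk nuclei and give no cell type. Pairing samples by sex was checked by the deviation of M from its condition mean, which mirrors that of F. Between the conditions this deviation had a correlation of -0.405 across loci and -0.0916 across promoters, over genes that are not independent replicates.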
